A study of Homo sapiens with 72 samples.

Results

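Described here are 38 genes of the lysosome and of autophagy, chosen by symbol for their place in these pathways, out of 23170 genes counted in the series. All 38 were found by matching Ensembl identifiers to symbols, and all 38 passed the filter on low counts. By role they comprise 4 lysosomal membrane proteins, 15 lysosomal enzymes, 2 secreted or lysosomal precursor proteins that assist the enzymes (PSAP and GRN), 5 proton pump genes, 2 transcription factors, 5 autophagy adaptors and 5 genes of autophagosome formation. The samples were wells of a 384-well plate seeded with 1250 normal human dermal fibroblasts each, primary cells of wildtype genotype from the skin. The drug was omaveloxolone, a synthetic triterpenoid known as an activator of the transcription factor NRF2, left on the cells for 24 h at 0.0005, 0.002, 0.005, 0.014, 0.04, 0.12, 0.37, 1.11, 3.33 or 10 µM with 4 wells a dose. The comparison group was 32 wells given DMSO, the solvent. Rows K and L of the plate held the treated wells, each dose in 1 column of the left side and 1 of the right (columns 3 to 22), and DMSO filled columns 2 and 23 with 16 wells each. The RNA of each well was read with DRUG-seq, a method that barcodes the polyadenylated RNA of lysed wells and sequences them in a pool. The cells are labelled as 1 kind with no donors set apart, so differences between donors are not covered.

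Lysosomes are acidic organelles in which hydrolases (proteases, lipases and glycosidases) break down material that arrives by endocytosis or autophagy. The vacuolar proton pump, made of a membrane part (V0) and a cytosolic part (V1), acidifies them. In autophagy, cytoplasm is enclosed by a double membrane that carries lipid-bound ATG8 proteins (the LC3 and GABARAP families), and receptors such as NBR1 and SQSTM1 link cargo to those proteins. The transcription factors TFEB and TFE3 are known to bind an E-box type sequence, called the CLEAR element, in the promoters of many lysosomal genes, and they are held in the cytoplasm when the kinase complex mTORC1 is active on the lysosome. Fibroblasts of the skin also use lysosomal cathepsins to turn over collagen that they take up.

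The promoters below are shown as examples of members with and without the E-box. The part of promoter sequence in the changes was not tested. RefSeq (GRCh38.p14) gave a promoter for 29 of the 38 members, and the 250 bases before the annotated start were searched on both strands. The core CACGTG, which reads the same on both strands, was found in 7 of the 29, and the longer TCACGTG, which contains it, in the same number. Over all 27305 promoters of the same length, 6.49% held CACGTG and 3.38% held TCACGTG. Of the 11 lysosomal enzymes with a promoter sequence 4 held CACGTG (CTSA, CTSD, GAA and NEU1), as did LAMP1, MCOLN1 and the pump gene ATP6V0D1. The enzymes CTSL, CTSZ, GLA, GLB1, TPP1, PPT1 and LIPA held none. Enzymes with and without CACGTG were higher at 1.11 µM than in DMSO. The antioxidant response core TGACNNNGC, part of a sequence bound by NRF2, was found in 8 of the 29 members and in 11% of all promoters, and a match to it can overlap one to TCACGTG. By role, TGACNNNGC was found in 5 of the 11 enzymes and in 1 of the 5 adaptors. The promoters of 5 members follow, 5′ to 3′ on the gene's strand, in lower case with matches to any of these motifs on either strand in capitals. A match is a description of the letters, and no binding was measured here.
MCOLN1, chr19:7522374-7522623, plus strand: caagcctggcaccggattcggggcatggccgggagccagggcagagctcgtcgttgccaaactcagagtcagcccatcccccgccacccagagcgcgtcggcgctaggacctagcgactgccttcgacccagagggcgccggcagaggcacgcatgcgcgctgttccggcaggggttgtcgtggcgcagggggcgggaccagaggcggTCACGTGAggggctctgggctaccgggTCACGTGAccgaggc
LAMP1, chr13:113296989-113297238, plus strand: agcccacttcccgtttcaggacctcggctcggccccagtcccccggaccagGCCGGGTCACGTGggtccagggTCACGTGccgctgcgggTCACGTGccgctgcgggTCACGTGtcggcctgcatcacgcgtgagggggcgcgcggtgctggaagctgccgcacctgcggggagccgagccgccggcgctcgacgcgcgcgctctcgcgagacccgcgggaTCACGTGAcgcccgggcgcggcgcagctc
GAA, chr17:80101331-80101580, plus strand: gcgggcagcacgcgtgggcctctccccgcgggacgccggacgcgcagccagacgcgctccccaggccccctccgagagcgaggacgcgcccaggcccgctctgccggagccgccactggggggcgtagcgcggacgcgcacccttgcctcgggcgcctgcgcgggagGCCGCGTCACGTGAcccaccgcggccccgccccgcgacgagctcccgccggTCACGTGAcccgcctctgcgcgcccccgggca
MAP1LC3B, chr16:87392086-87392335, plus strand: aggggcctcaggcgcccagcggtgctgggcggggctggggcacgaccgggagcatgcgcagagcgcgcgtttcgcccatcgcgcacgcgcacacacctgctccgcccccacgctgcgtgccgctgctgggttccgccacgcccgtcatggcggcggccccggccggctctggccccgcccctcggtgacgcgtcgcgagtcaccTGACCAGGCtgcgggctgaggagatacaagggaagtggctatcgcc
GABARAPL1, chr12:10212627-10212876, plus strand: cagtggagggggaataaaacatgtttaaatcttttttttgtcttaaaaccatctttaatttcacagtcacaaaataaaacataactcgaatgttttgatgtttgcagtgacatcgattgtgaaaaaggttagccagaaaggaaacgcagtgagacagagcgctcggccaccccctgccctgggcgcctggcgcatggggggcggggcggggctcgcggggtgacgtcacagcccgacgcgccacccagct
The promoters of MCOLN1, LAMP1 and GAA hold 2, 5 and 2 copies of CACGTG, and those of LAMP1 and GAA also hold 1 match each to TGACNNNGC. That of MAP1LC3B holds TGACNNNGC and no CACGTG in these 250 bases, and that of GABARAPL1 holds neither.

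Levels are CPM values, counts brought to the same total in every well with TMM factors, and changes are log2 differences of a dose from DMSO with a standard error (SE) from edgeR's quasi-likelihood fit. A gene was called where its p-value, adjusted by Benjamini-Hochberg over all 14259 genes tested, was under 0.05. The labels number the wells of a group as biological replicates, but nothing in the labels says that they came from separate cultures, so the p-values measure the spread between wells. Total counts ran from 4910790 to 8685413 in the DMSO wells. They were higher with 0.37 µM (9310743 to 10386621) and lower with 1.11 µM (1432727 to 1709977), and with 3.33 µM and 10 µM they fell to 132317 to 208739 and 25635 to 39396. Mitochondrial genes took 0.60015 to 1.24887% of the counts in DMSO, 0.347 to 0.539% with 0.12 µM, 0.0317 to 0.0513% with 0.37 µM and 0.0143 to 0.0265% with 1.11 µM. Genes detected per well were 13079 to 14831 in DMSO, 13906 to 14379 with 0.37 µM and 10445 to 10981 with 1.11 µM. The mitochondrial share was below the DMSO range at 0.12, 0.37 and 1.11 µM, and the genes detected were below it at 1.11 µM only among these doses. Their part in the changes of the enzymes and adaptors was not tested. A level in CPM is a share of a well's RNA, and where totals fall, fewer cells and less RNA per cell cannot be told apart.

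Marker genes were read beside the members. All 10 fibroblast markers were counted in every group, with a summed level of 67500 to 81730 CPM in DMSO, 33770 to 37940 CPM with 0.37 µM and 66770 to 79410 CPM with 1.11 µM, the lowest of these where adaptors and pump genes were high. Most of this sum was VIM, with a mean of 60340 CPM in DMSO, and the other markers did not move alike. COL1A1 had means of 3634 CPM in DMSO and 404 CPM with 0.37 µM. With 1.11 µM COL3A1 (1215 to 419.8 CPM) and LUM (150.6 to 54.4 CPM) had lower means than in DMSO, and COL1A2 (3737 to 6287 CPM) and DCN (4691 to 8150 CPM) higher ones. Macrophages are rich in lysosomal enzymes, and the leukocyte list (9 of 10 counted) summed to 93.2 to 184 CPM in DMSO, 90.2 to 98.1 CPM with 0.37 µM and 204.9 to 410.5 CPM with 1.11 µM. Most of that sum was CD68, itself a protein of the lysosome, with a mean of 269.5 CPM at 1.11 µM and 135.4 CPM in DMSO. At 1.11 µM PTPRC, LYZ, CSF1R and TYROBP of that list had no count, while FCER1G, ITGAM and MARCO had means of 1.47, 1.49 and 1.12 CPM, against 0.110, 0 and 0.154 CPM in DMSO. At 0.37 µM PTPRC had a mean of 2.01 CPM, against 0.00902 CPM in DMSO. The endothelial and melanocyte lists did not pass 8.32 CPM in any well of DMSO, 0.37 or 1.11 µM, and the keratinocyte list, of which 4 of 7 genes were counted, summed to 325 to 571 CPM in DMSO and 294 to 351 CPM at 1.11 µM. Nearly all of the keratinocyte sum was KRT10 (mean 446.9 CPM in DMSO), with DSG3, TP63 and CDH1 at means of 0.367, 0.792 and 0.609 CPM in DMSO and at 0 at 1.11 µM. The part of these markers in the results was not tested.

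At doses of 0.12 µM and below, edgeR called none of the 38 members. The share of all genes that it called grew with the dose, from 0.00701% for 0.0005 µM through 0.0561% for 0.002 µM, 0.0771% for 0.005 µM, 0.217% for 0.014 µM and 0.792% for 0.04 µM to 2.33% for 0.12 µM. At 0.12 µM 7 members, 6 of them enzymes, had an unadjusted p under 0.05 in edgeR, against at most 1 at each lower dose. The share of all genes under that unadjusted threshold is not given here, so whether 7 is above the background is not known. DESeq2's Wald test called 2 members at 0.12 µM (CTSA and CTSZ, both lower). The lysosomal enzymes had a median change of -0.31 at 0.12 µM with 12 of 15 negative, beside -0.07 for all genes. Per well, the median log2 ratio of the enzymes to the DMSO mean was -0.69 and -0.54 on the left side, and -0.38 and 0.04 on the right. In the DMSO wells of the same rows, K and L, it was -0.32 and -0.42 in column 2, and -0.11 and 0.04 in column 23. The part of plate position in the change at 0.12 µM was not tested. At the same dose the receptor SQSTM1 rose, from 93.9 ± 9.88 CPM (SD, n = 32) to 236 ± 24.8 CPM (SD, n = 4), a log2 change of 1.33 (adjusted p = 4.78e-09).

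At 0.37 µM 3 of 5 autophagy adaptors and 4 of 5 proton pump genes rose while 6 of 15 lysosomal enzymes fell, and at 1.11 µM 14 enzymes rose and 3 adaptors fell. Of the 38 members 10 were called higher and 7 lower at 0.37 µM, beside 11.2% higher and 13.6% lower of all genes. At 1.11 µM 20 were higher and 4 lower, beside 9.77% and 13.2% of all genes. The share called higher was thus above the background at both doses, the share called lower above it at 0.37 µM and slightly below it at 1.11 µM. The members, and the lists of other genes given below, were chosen with earlier results of these data known. Such shares are therefore a description only. Of the 10 members higher at 0.37 µM only GLA was also higher at 1.11 µM, GABARAPL2 was lower there, and edgeR did not call the other 8. Of these 8 DESeq2's Wald test called GABARAPL1 and ATP6V1A at 1.11 µM, for which edgeR gave changes of 0.57 and -0.99. All 6 enzymes that were lower at 0.37 µM (CTSA, CTSK, CTSZ, GLB1, LIPA and PPT1) were higher at 1.11 µM, and ULK1 was lower at both. These 2 comparisons share the DMSO wells. Between the 2 doses directly, which needs no DMSO well, 16 members were higher at 1.11 µM than at 0.37 µM and 10 were lower, beside 12.1% and 13.4% of all genes. With DESeq2's size factors this was 13 and 13, and the share of higher genes among all called between the doses was 37.0% in place of 47.4%.

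**Figure D1:**
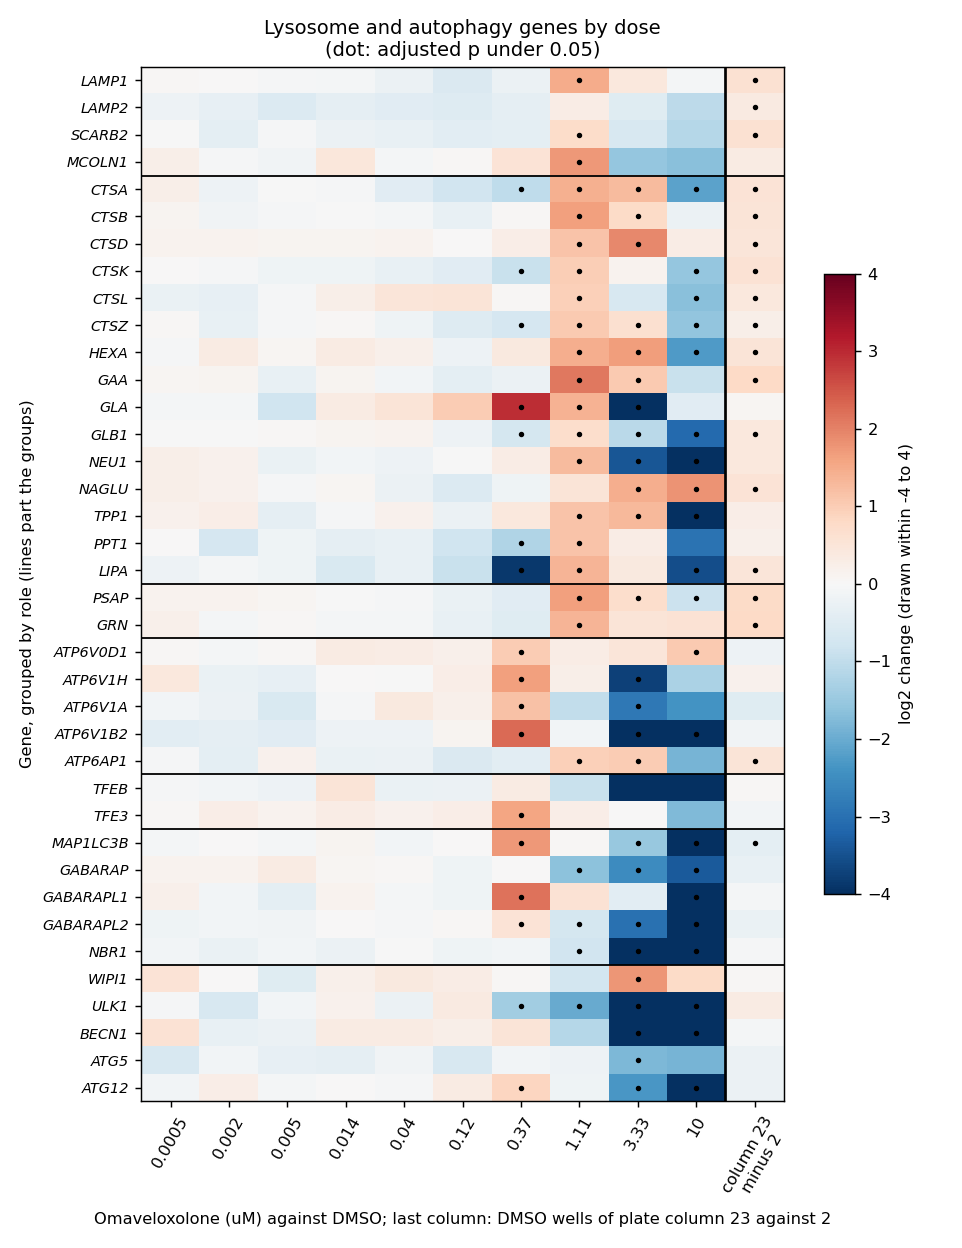
Log2 change of each of the 38 genes (rows, grouped by role) against DMSO at each dose in µM (columns), with the DMSO wells of plate column 23 against those of column 2 at the right; red is higher, blue lower, colours end at -4 and 4, and a dot marks an adjusted p under 0.05. Dots are absent up to 0.12 µM, 14 of 15 enzymes carry one at 1.11 µM, and 11 of 15 carry one in the DMSO column comparison.

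Among the 15 lysosomal enzymes edgeR called 1 higher and 6 lower at 0.37 µM, and 14 higher at 1.11 µM. LIPA, the acid lipase that hydrolyses cholesteryl esters and triglycerides, fell furthest. Its level was 17.4 to 79.6 CPM (median 46.2) in the DMSO wells and 2.52, 6.96, 2.96 and 0.102 CPM in the 4 wells at 0.37 µM, all below every DMSO well. The log2 change was -3.87 (SE 0.46, adjusted p = 1.25e-10), a level 14.6-fold lower. At 1.11 µM the same gene was at 176, 110.4, 135 and 53.0 CPM, with 3 wells above the DMSO range and 1 inside it, a change of 1.36 (SE 0.30, adjusted p = 3.40e-04). Between the doses LIPA differed by 5.24 (SE 0.54, adjusted p = 9.67e-13), and it also fell between 0.12 and 0.37 µM (-2.97, SE 0.49, adjusted p = 5.55e-06). The annotation of LIPA overlaps IFIT1, IFIT2 and IFIT3 on the other strand, and whether the counting used strand is not given in the sources used here. IFIT1 fell with it at 0.37 µM (log2 change -4.84, adjusted p = 1.77e-08), while IFIT2 (-0.29, adjusted p = 0.808) and IFIT3 (0.14, adjusted p = 0.818) were not called.

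GLA, the alpha-galactosidase deficient in Fabry disease, was the only enzyme that edgeR called higher at 0.37 µM. DESeq2's Wald test also called CTSD and HEXA at that dose, for which edgeR gave changes of 0.26 and 0.38. GLA was low in the DMSO wells, at 1.12 to 13.7 CPM (median 5.31), and reached 34.99, 57.8, 36.2 and 39.1 CPM at 0.37 µM, all above the DMSO range. The change was 2.94 (SE 0.36, adjusted p = 2.64e-10), 7.66-fold. At 0.12 µM the wells stood at 3.97, 6.01, 18.0 and 16.0 CPM, 2 of them above the DMSO maximum, and the change of 1.00 (SE 0.42, adjusted p = 0.269) was not called. At 1.11 µM GLA was at 7.73, 23.9, 11.8 and 14.3 CPM, 2 wells above the DMSO range and 2 inside it, with a change of 1.40 (SE 0.42, adjusted p = 0.0108), and 1.04 (adjusted p = 0.138) without well 2 of that dose.

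PPT1, the palmitoyl-protein thioesterase, had 12.4 to 57.3 CPM (median 31.4) in DMSO and 17.7, 15.0, 5.91 and 14.1 CPM at 0.37 µM. The 4 wells lay in the lower part of the DMSO range or below it, and the change was -1.22 (SE 0.42, adjusted p = 0.0253), or -0.97 (adjusted p = 0.136) without well 3. At 1.11 µM its wells held 114, 83.5, 65.6 and 10.9 CPM, 3 above all DMSO wells and 1 below them, a change of 1.15 (SE 0.35, adjusted p = 0.0115), or 0.77 (adjusted p = 0.203) without well 1. PPT1 overlaps CAP1 on the other strand, which changed by 0.45, adjusted p = 0.0102, at 0.37 µM, and CTSA overlaps PLTP, which fell with it (-1.08, adjusted p = 0.0272) and rose at 1.11 µM (1.42, adjusted p = 3.46e-04). The other enzymes called lower at 0.37 µM were the cathepsins CTSA (-1.01), CTSK (-0.89) and CTSZ (-0.67) and the beta-galactosidase GLB1 (-0.72). DESeq2's Wald test called all of these but GLB1. Of these CTSK, the collagen-degrading cathepsin, fell in all 4 wells below the DMSO range, at 886, 863, 832 and 716 CPM against a DMSO minimum of 916 CPM.

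At 1.11 µM the enzyme with the largest rise was GAA, the acid alpha-glucosidase that degrades glycogen. Its wells held 114, 77.6, 112 and 66.6 CPM against 2.71 to 38.1 CPM (median 21.0) in DMSO, so the groups did not overlap. The change was 2.12 (SE 0.30, adjusted p = 3.11e-08), 4.35-fold, whereas at 0.37 µM it was -0.23 (SE 0.35, adjusted p = 0.695). CTSB, a cysteine cathepsin, was at 2632, 2179, 2775 and 2585 CPM against 497 to 1126 CPM (median 831) in DMSO, again without overlap, a change of 1.64 (SE 0.16, adjusted p = 1.14e-13). At 0.37 µM CTSB was at 759, 939, 863 and 808 CPM, inside the DMSO range. The 14 called changes at 1.11 µM ran from 0.71 (GLB1) to 2.12 (GAA), the remaining enzyme NAGLU had 0.50 (SE 0.31, adjusted p = 0.237), and the median of the 15 was 1.15 beside -0.20 for all genes. In 8 of the 15 all 4 wells lay above every DMSO well. The proteases CTSL and TPP1, the hexosaminidase subunit HEXA and the sialidase NEU1 rose by 0.96, 1.12, 1.46 and 1.26, and edgeR called none of them at 0.37 µM (0.03 to 0.41).

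**Figure D2:**
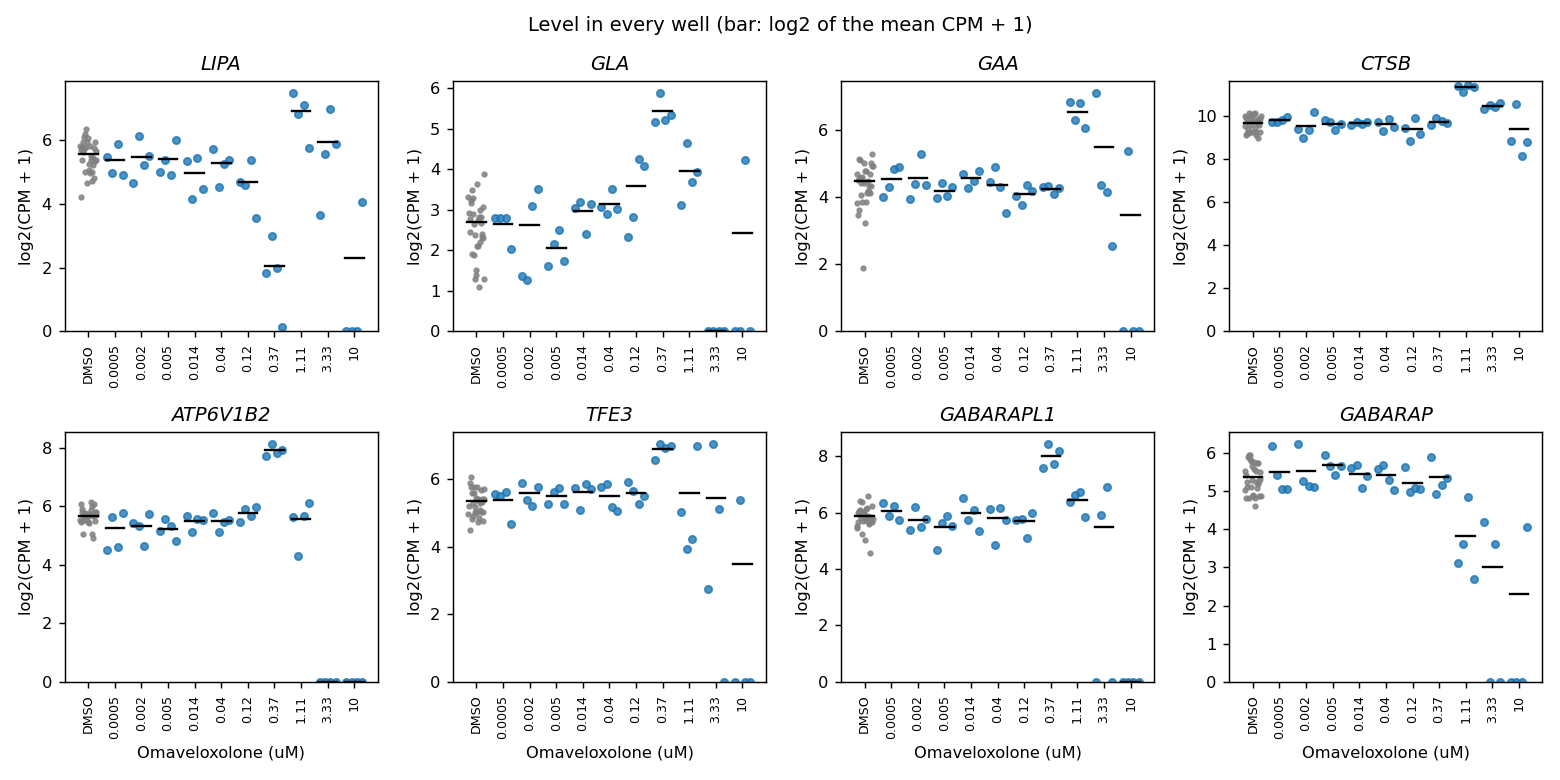
Level of 8 members in every well, as log2(CPM + 1), for DMSO (grey, 32 wells) and each dose in µM (blue, 4 wells); bars mark the mean CPM on the same scale. LIPA is lowest at 0.37 µM among doses up to 1.11 µM and above most DMSO wells at 1.11 µM, GAA and CTSB are high at 1.11 µM only among those doses, and ATP6V1B2, TFE3, GABARAPL1 and GLA peak at 0.37 µM.

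Both helper proteins rose at 1.11 µM. PSAP, the precursor of the saposins that present sphingolipids to the hydrolases, was at 1916, 1595, 1878 and 1386 CPM there, against 254 to 999 CPM (median 520.0) in DMSO and 347, 387, 456 and 381 CPM at 0.37 µM. All 4 wells at 1.11 µM lay above the DMSO range, a change of 1.64 (SE 0.18, adjusted p = 2.45e-11). GRN, the progranulin precursor, was at 558, 526, 477 and 402 CPM against 105 to 329.7 CPM (median 180.2), also without overlap, a change of 1.36 (SE 0.21, adjusted p = 6.79e-07). At 0.37 µM PSAP (-0.47, SE 0.22, adjusted p = 0.115) and GRN (-0.48, SE 0.25, adjusted p = 0.153) were not called.

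Of the 4 lysosomal membrane proteins 3 were called higher at 1.11 µM, and at 0.37 µM edgeR called none (none at an unadjusted p under 0.05, and none by DESeq2). LAMP1, a heavily glycosylated protein that lines the lysosomal membrane, was at 611, 403, 664 and 527 CPM against 87.9 to 293 CPM (median 183) in DMSO, all 4 wells above the DMSO range, a change of 1.499 (SE 0.20, adjusted p = 1.21e-08). MCOLN1, the calcium channel of the lysosome, was at 18.6, 73.8, 60.6 and 13.6 CPM against 3.04 to 25.9 CPM (median 12.0). In 2 of those wells it exceeded every DMSO well and in 2 it lay inside their range, a change of 1.73 (SE 0.34, adjusted p = 6.69e-05). SCARB2, a membrane receptor that carries the glucocerebrosidase to the lysosome, changed by 0.74 (SE 0.27, adjusted p = 0.0357), and LAMP2 by 0.30 (SE 0.28, adjusted p = 0.429). MCOLN1 overlaps PNPLA6 on the same strand, which was not called (0.40, adjusted p = 0.570).

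The proton pump rose at 0.37 µM in 4 of its 5 genes, with 1 at 1.11 µM. ATP6V1B2, a subunit of the ATP-binding ring of V1, stood at 209.7, 283, 229 and 245 CPM against 29.3 to 70.1 CPM (median 50.5) in DMSO. The groups did not overlap, and the change was 2.27 (SE 0.17, adjusted p = 9.01e-19), 4.81-fold. At 1.11 µM the gene was at 48.7, 18.6, 49.6 and 68.0 CPM (-0.12, SE 0.22, adjusted p = 0.716). ATP6V1H, the regulatory subunit of V1, was at 143, 112, 101 and 108 CPM against 19.2 to 59.3 CPM (median 35.4), without overlap, a change of 1.64 (SE 0.21, adjusted p = 1.92e-09). ATP6V1A, the catalytic subunit, was at 103, 97.0, 71.96 and 91.8 CPM against 20.2 to 103 CPM (median 39.8), above all DMSO wells but 1, a change of 1.16 (SE 0.32, adjusted p = 0.00331). ATP6V0D1, of the V0 part, changed by 1.01 (SE 0.24, adjusted p = 5.77e-04) with all 4 wells above DMSO.

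ATP6AP1, the accessory protein of the pump, was the member called at 1.11 µM. It was at 22.4, 32.4, 32.5 and 41.1 CPM at 0.37 µM and 83.5, 42.5, 158 and 48.3 CPM at 1.11 µM, against 16.8 to 75.4 CPM (median 42.8) in DMSO. At 1.11 µM 2 wells lay above the DMSO range and 2 inside it. The changes were -0.41 (SE 0.34, adjusted p = 0.417) and 0.95 (SE 0.32, adjusted p = 0.0197), and the call at 1.11 µM was lost without well 1, at 0.94 (adjusted p = 0.0508), and without well 3, at 0.44 (adjusted p = 0.340). From 0.37 to 1.11 µM ATP6V1B2, ATP6V1A and ATP6V1H changed by -2.38, -2.15 and -1.40 on the log2 scale, all called, and ATP6AP1 rose by 1.37.

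TFE3, a transcription factor of lysosomal genes, rose at 0.37 µM. Its wells were at 93.3, 129, 119 and 124 CPM against 21.4 to 66.0 CPM (median 38.7) in DMSO, with no overlap, a change of 1.56 (SE 0.27, adjusted p = 2.47e-06). At 1.11 µM they were at 31.7, 14.2, 17.7 and 124 CPM, 2 below the DMSO range, 1 inside it and 1 above it, and the change was 0.27 (SE 0.32, adjusted p = 0.548), positive although 3 of the 4 wells lay below the DMSO median. TFEB was low, at 0.215 to 6.55 CPM (median 2.93) in DMSO, and changed by 0.32 (SE 0.69, adjusted p = 0.783) at 0.37 µM and -0.90 (SE 0.85, adjusted p = 0.448) at 1.11 µM, neither called by edgeR or DESeq2.

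Among the 5 autophagy adaptors 3 rose at 0.37 µM and 3 fell at 1.11 µM. GABARAPL1, an ATG8 protein, was at 188, 346, 209 and 286 CPM at 0.37 µM against 22.5 to 94.96 CPM (median 56.3) in DMSO, all above the DMSO range. The change was 2.17 (SE 0.22, adjusted p = 1.12e-12), 4.49-fold, and at 1.11 µM it was 0.57 (SE 0.27, adjusted p = 0.118). MAP1LC3B, which encodes the LC3B protein used as a marker of autophagosomes, stood at 499.8, 1131, 584 and 689.7 CPM against 161 to 284 CPM (median 216), without overlap, a change of 1.74 (SE 0.16, adjusted p = 1.07e-14). At 1.11 µM its wells held 123, 210.3, 348 and 224 CPM, 1 above the DMSO range, 2 inside it and 1 below it (0.05, SE 0.19, adjusted p = 0.860). MAP1LC3B2 is a near-identical copy that can share reads with MAP1LC3B, and it moved with it at 0.37 µM (log2 change 1.87, adjusted p = 2.32e-04), so the split between the copies is uncertain. FBXO31, which overlaps MAP1LC3B, was not called at 0.37 µM (0.85, adjusted p = 0.0757).

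GABARAPL2, of the same family, was at 200.2, 212, 242 and 188 CPM at 0.37 µM against 92.8 to 208 CPM (median 136) in DMSO, with 2 wells above the DMSO range and 2 inside it. The change was 0.54 (SE 0.17, adjusted p = 0.0138), and 0.47 (adjusted p = 0.0594) without well 3. At 1.11 µM it was at 73.4, 111, 57.2 and 116 CPM, 2 wells below the DMSO range and 2 inside it, a change of -0.70 (SE 0.20, adjusted p = 0.00594), and -0.54 (adjusted p = 0.0545) without well 3. GABARAP itself was not called at 0.37 µM (0.00, SE 0.26, adjusted p = 0.997).

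At 1.11 µM GABARAP was at 7.73, 11.2, 27.8 and 5.44 CPM against 23.3 to 60.5 CPM (median 37.8) in DMSO, 3 wells below every DMSO well and 1 inside their range, a change of -1.65 (SE 0.33, adjusted p = 6.78e-05). NBR1, a cargo receptor for ubiquitinated proteins, was at 33.2, 75.3, 63.9 and 64.6 CPM against 48.2 to 172 CPM (median 98.1), with 1 well below the DMSO range, a change of -0.76 (SE 0.24, adjusted p = 0.014), and -0.58 (adjusted p = 0.111) without well 1. At 0.37 µM NBR1 had -0.12 (SE 0.22, adjusted p = 0.730).

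Genes of autophagosome formation split. ULK1, the kinase that starts the process, was at 1.26, 11.1, 11.8 and 8.19 CPM at 0.37 µM and 3.87, 12.7, 0 and 4.08 CPM at 1.11 µM, against 6.69 to 45.8 CPM (median 21.0) in DMSO. At 0.37 µM 1 well lay below the DMSO range and 3 inside it, and at 1.11 µM 3 lay below it and 1 inside. The changes were -1.38 (SE 0.40, adjusted p = 0.00676) and -2.01 (SE 0.47, adjusted p = 7.17e-04). Without well 1 the change at 0.37 µM was -1.01 (adjusted p = 0.0817). ATG12, which is conjugated to ATG5 to lipidate ATG8 proteins, was at 95.7, 136, 106 and 171 CPM at 0.37 µM against 36.3 to 110.2 CPM (median 68.6) in DMSO, 2 wells above the DMSO range and 2 inside it, a change of 0.85 (SE 0.22, adjusted p = 0.00177). It overlaps AP3S1 on the other strand, which fell (-0.63, adjusted p = 0.025). ATG5, BECN1 and WIPI1 were not called at 0.37 or 1.11 µM, with changes between -0.10 and 0.52 at 0.37 µM and between -1.14 and -0.22 at 1.11 µM. BECN1, a part of the lipid kinase complex of autophagy, was lower at 1.11 µM than at 0.37 µM (-1.66, SE 0.59, adjusted p = 0.0305).

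The contrast of enzymes with adaptors was described in every well by the median log2 ratio of each group to the mean of the DMSO wells. At 1.11 µM the enzyme median lay 2.12, 1.46, 1.79 and 1.27 above the adaptor median in the 4 wells. In the 32 DMSO wells this gap ran from -0.81 to 0.70 (median 0.02), so the wells at 1.11 µM lay outside it. At 0.37 µM the gap was -0.68, -0.72, -1.04 and -0.48, with 3 of the 4 wells inside the DMSO range and 1 below it. At doses up to 0.04 µM the group medians of the gap ran from -0.02 to 0.07, with single wells from -0.58 to 0.66. At 0.12 µM the median was -0.43, beside -0.44 in the DMSO wells of column 2. The 4 wells at 0.12 µM ran from -0.59 to 0.33, all inside the DMSO range.

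**Figure D3:**
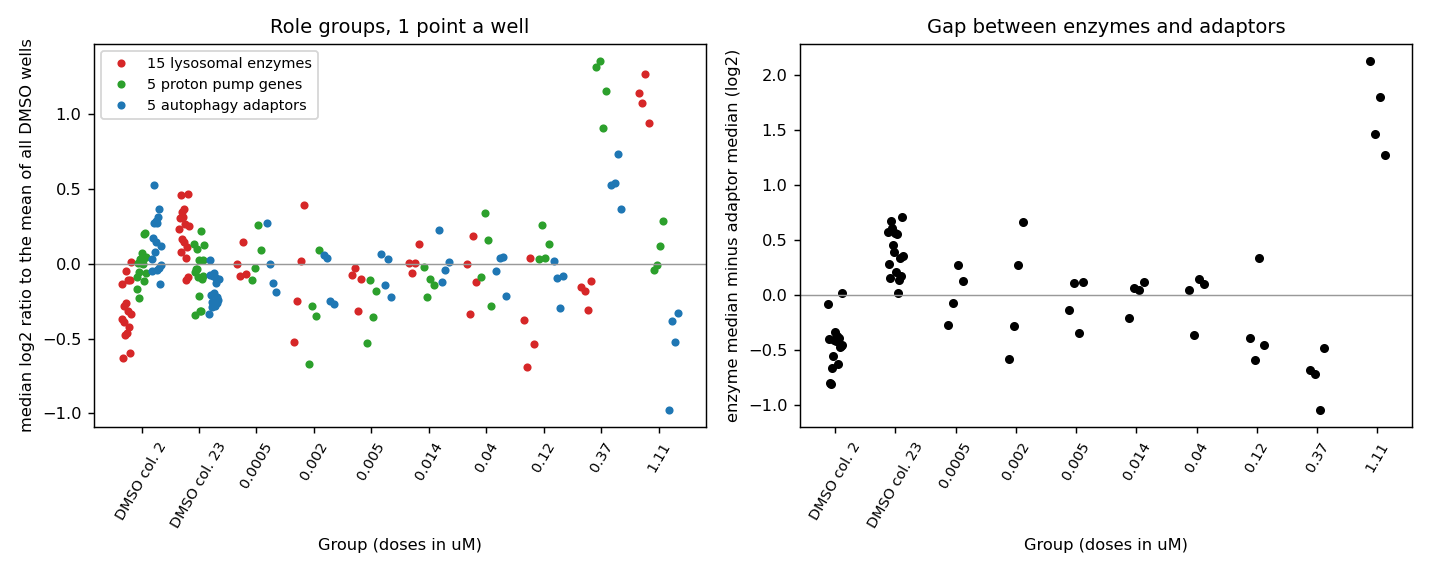
Left, median log2 ratio to the mean of all DMSO wells for 15 enzymes (red), 5 proton pump genes (green) and 5 autophagy adaptors (blue), 1 point a well, for the DMSO wells of columns 2 and 23 and for doses in µM; right, the enzyme median minus the adaptor median in the same wells. The DMSO columns lie on opposite sides of 0 (medians -0.44 and 0.37), the wells at 0.37 µM lie beside column 2, and those at 1.11 µM lie from 1.27 to 2.12.

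The DMSO wells themselves differed by plate column, and they differed in these genes. Between column 23 and column 2 (11258 genes tested in the 32 wells) 17 of the 38 members were called higher and 1 lower, beside 3.3% and 2.81% of all genes. All 15 enzymes were higher in column 23, 11 of them called, with a median of 0.49, and the 5 adaptors were all negative, with MAP1LC3B called at -0.38 (SE 0.06, adjusted p = 9.06e-06). PSAP ran from 254 to 546 CPM (median 403) in column 2 and from 430.4 to 999 CPM (median 686) in column 23, a difference of 0.76 (SE 0.09, adjusted p = 3.52e-07). GRN ran from 105 to 195 CPM (median 139) and from 140.0 to 329.7 CPM (median 251), a difference of 0.80 (SE 0.08, adjusted p = 4.10e-08). GAA had 0.78 (SE 0.19, adjusted p = 0.00617), and the columns overlapped for all 3 genes. LAMP1, LAMP2, SCARB2 and ATP6AP1 were also called higher in column 23, by 0.60, 0.35, 0.61 and 0.53. Mean total counts were 6108000 in column 2 and 7206000 in column 23, and the fibroblast markers summed to medians of 74790 and 75450 CPM. The part of depth in the difference was not tested.

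Set beside this column difference, the rise of the enzymes at 1.11 µM had a larger median and the same sign on both sides of the plate. Its median was 1.15 against 0.49 between columns, and with treated and DMSO wells of 1 side alone it was 1.22 on the left and 1.04 on the right, with 15 of 15 enzymes positive in each. At 0.37 µM the sides gave different values. Against column 2, on the left, the median of the 15 was 0.21, with 9 positive, and against column 23, on the right, it was -0.52, with 5 positive. On both sides the dose fell as the column number rose. Dose and column position within a side therefore cannot be told apart, also where both sides gave the same sign. Treated wells lay in rows K and L only. In column 23 the DMSO wells of those rows had median enzyme ratios of -0.11 and 0.04, against 0.24 over the column. In column 2 they had -0.32 and -0.42, against -0.33. The side values thus mix plate column with row, and the part of row was not tested. The 6 enzymes called lower were negative on both sides, with 2 of them (LIPA and CTSK) called on the left and 5 (all but PPT1) on the right. Scaling by DESeq2's size factors moved the median of all genes at 0.37 µM from -0.14 to 0.11 and that of the enzymes from -0.18 to 0.06, so the sign of the enzyme median at this dose follows the scaling. With it LIPA, CTSA and CTSK of the 6 were still called lower, 12 members were called higher and 4 lower, and the share of higher genes among all called rose from 45.1% to 63.3%. Relative to the median of all genes 7 of 15 enzymes were above it with either scaling.

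For adaptors and pump genes both sides gave positive medians at 0.37 µM. The median of the adaptors was 0.34 on the left and 0.75 on the right, and that of the pump genes 1.05 and 1.36. On the left 2 of the 5 adaptors were negative (GABARAP -0.37 and NBR1 -0.24), and on the right 1. At 1.11 µM the adaptor median was -0.48 on the left and -1.03 on the right. The 3 adaptors called lower there were negative on both sides, and each lost the call on 1 side: GABARAPL2 (-0.48, adjusted p = 0.238) and NBR1 (-0.54, adjusted p = 0.328) on the left and GABARAP (-1.06, adjusted p = 0.0587) on the right. GABARAPL1 and ATP6V1B2 differed between the columns by -0.08 (SE 0.14, adjusted p = 0.853) and -0.15 (SE 0.11, adjusted p = 0.531), against 2.17 and 2.27 at 0.37 µM. MAP1LC3B was lower in column 23, at 161 to 222 CPM (median 185) against 214 to 284 CPM (median 238), and all 4 wells at 0.37 µM were above both.

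**Figure D4:**
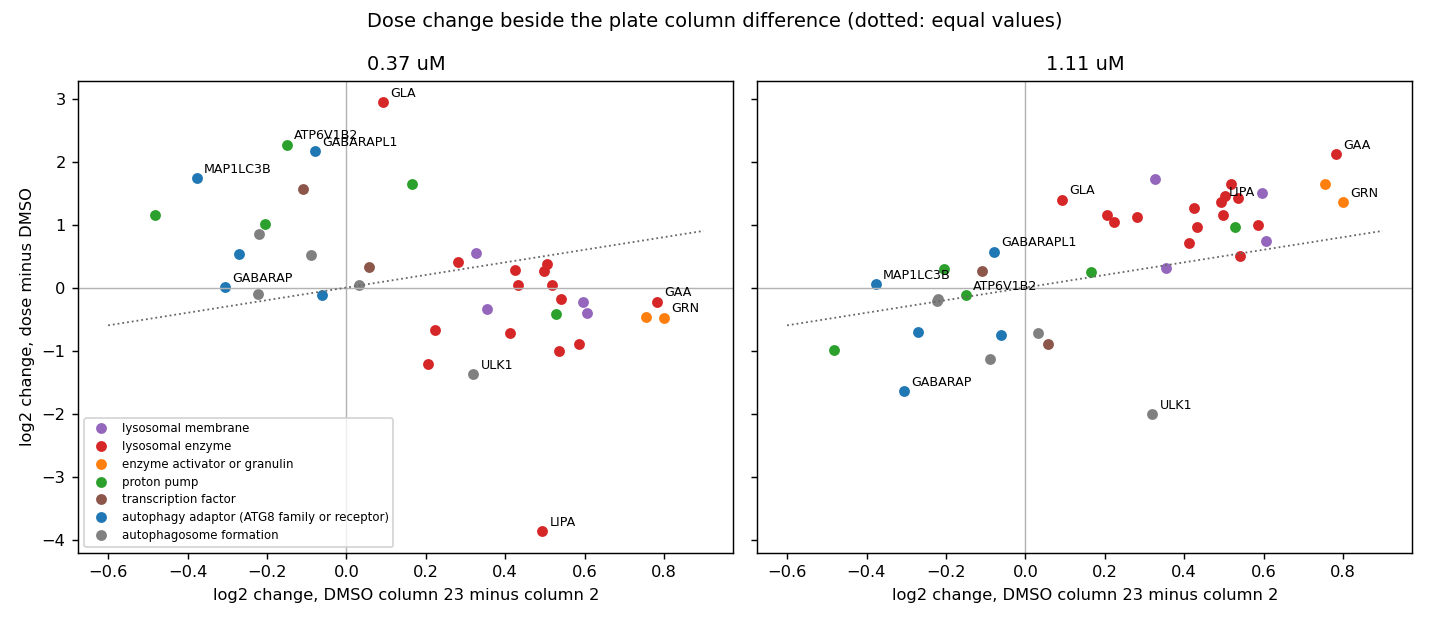
For each of the 38 genes, coloured by role, the log2 change at 0.37 µM (left) and 1.11 µM (right) on the y axis against the log2 difference of DMSO column 23 from column 2 on the x axis; the dotted line marks equal values, and both axes use the DMSO wells. Enzymes sit right of 0 in both panels, at or below 0.41 in the left panel except GLA, and at 0.50 or above in the right panel.

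Raw counts gave the other side of the levels at 1.11 µM. All 38 members had a lower mean count per well there than in DMSO, at a median of 0.326 times the DMSO mean. Mean total counts were 1566000 per well at 1.11 µM and 6657000 in DMSO, and raw counts are not scaled for this. The same count over all genes is not given here, so the 38 cannot be read as a result about the members. The 15 enzymes together had 9945 to 11283 counts per well at 1.11 µM, against 11837 to 37179 (median 20306) in DMSO, while their summed level was 7418 to 8415 CPM against 2114 to 4803 CPM. The adaptors had 413 to 715 counts against 2528 to 4991, a ratio of mean counts of 0.129 in the median gene, beside 0.435 for the enzymes. At 0.37 µM, where mean total counts were 9878000, 30 of 38 members had a higher mean count than in DMSO. Their median was 1.449 times the DMSO mean over all 38, and this too goes with the higher totals. There LIPA, CTSA, CTSK, CTSZ, GLB1 and PPT1, the enzymes called lower, also had fewer raw counts than in DMSO.

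**Figure D5:**
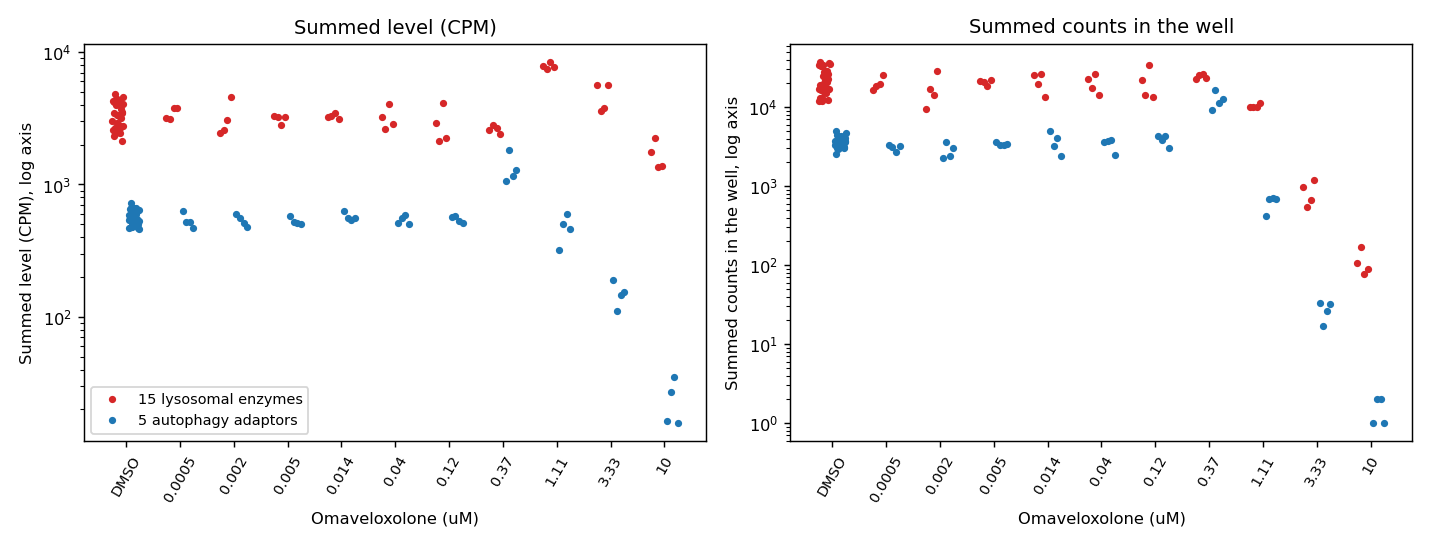
Summed level in CPM (left) and summed raw counts (right) of the 15 enzymes (red) and 5 adaptors (blue) in every well, on log axes, by group (DMSO, then doses in µM). At 1.11 µM the enzymes lie above all DMSO wells in CPM (7418 to 8415) and below all of them in counts (9945 to 11283).

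From 0.12 to 0.37 µM 6 members were called higher (ATP6V1B2, MAP1LC3B, GABARAPL1, ATP6V1H, TFE3 and GLA) and 2 lower (LIPA and ULK1), beside 2.52% and 5.6% of all genes. The step from 0.37 to 1.11 µM lowered 4 of 5 adaptors, GABARAPL1, MAP1LC3B, GABARAP and GABARAPL2 (-1.60, -1.68, -1.65 and -1.23), and NBR1 had -0.63, not called. Enzymes rose over the same step in 11 of 15, by a median of 1.43 over the 15, and LIPA moved most. From 1.11 to 3.33 µM 2 members were higher and 19 lower, beside 7.13% and 27.6% of all genes.

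At 3.33 µM 11 members were called higher and 14 lower (7.35% and 32.9% of all genes), and at 10 µM 2 were higher and 19 lower (3.35% and 31.8%). The median of all genes was -2.32 and -5.51 there. At 3.33 µM 8 of the 15 enzymes were higher than in DMSO, led by the aspartic cathepsin CTSD at 637, 248, 298 and 426 CPM against 58.1 to 161 CPM (median 107), a change of 1.93 (SE 0.19, adjusted p = 8.15e-14). WIPI1, which binds the phospholipid of forming autophagosomes, was higher at 74.6, 13.1, 44.9 and 129 CPM against 4.18 to 37.3 CPM (median 19.2) (1.77, SE 0.44, adjusted p = 8.77e-04). Of the 5 adaptors 4 were lower. Over the 4 wells 5 members had no count at 3.33 µM and 9 at 10 µM, and another 3 and 14 had 1 to 3 counts. ATP6V1B2 had none at either dose, and with 3 counts over the group as the floor it was at least 12.0-fold lower at 3.33 µM. At 10 µM NBR1 was at least 8.56-fold, ATG12 at least 6.04-fold and GABARAPL1 at least 4.88-fold lower by the same floor, and the floor covers counting error only. NAGLU and ATP6V0D1, the members called higher at 10 µM, rested on wells that ranged from 0 to 277 CPM and from 0 to 229 CPM.

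Genes of the same pathways outside the 38 were followed through 7 lists of 159 genes, of which 158 were counted and 156 tested. At 0.37 µM 36 were called higher and 12 lower, beside 11.2% and 13.6% of all genes, so that the lower calls were below the background. At 1.11 µM 27 were higher and 28 lower, beside 9.77% and 13.2%. These shares are the background for each list. Among 12 other pump subunits 8 rose and 1 fell at 0.37 µM, with 3 and 2 at 1.11 µM. ATP6V0B rose from 60.4 ± 12.6 to 219 ± 41.5 CPM at 0.37 µM and was at 219 ± 65.7 CPM at 1.11 µM (adjusted p = 1.70e-10 and 8.08e-10). ATP6V0A1 changed by 2.00 and then 0.82, the second not called, and ATP6V0E2 fell by 1.58 and by 0.81. Among 17 other receptors and ATG8 genes 7 rose at 0.37 µM and 7 fell at 1.11 µM, where 1 rose, which was SQSTM1. SQSTM1 was at 1061 ± 85.2 CPM at 0.37 µM and 233 ± 14.3 CPM at 1.11 µM, against 93.9 ± 9.88 CPM in DMSO.

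Of 35 other lysosomal enzymes 6 fell at 0.37 µM, a share little above the background of 13.6%, and 14 rose and 2 fell at 1.11 µM. CTSC, a cathepsin that activates serine proteases, fell to 178 ± 23.0 CPM from 406 ± 69.4 and rose to 807 ± 98.3 CPM (adjusted p = 6.87e-05 and 1.11e-04). GGH, which trims folates, fell by 1.68 at 0.37 µM (adjusted p = 5.40e-04) and was not called at 1.11 µM (0.70). Of 23 other membrane or transport proteins of the lysosome 6 rose and 3 fell at 0.37 µM, and 5 rose at 1.11 µM; the share that fell at 0.37 µM was near the background of 13.6%. OSTM1 (1.96) and TMEM192 (1.65) led the rise at 0.37 µM, and GNPTG (-0.96) and GNPTAB (-0.92), both of the enzyme that tags hydrolases for the lysosome, fell.

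In the remaining lists 3 of 27 autophagosome formation genes tested rose at 0.37 µM, among them VMP1 (1.10, and 1.64 at 1.11 µM) and RUBCN (1.16), a share near the background of 11.2%, and at 1.11 µM 1 rose and 5 fell. Of 16 genes of fusion and trafficking 5 rose at 0.37 µM, with RAB7A, the small GTPase of late endosomes, going from 239.7 ± 33.0 to 776 ± 152 CPM (adjusted p = 2.74e-13), and at 1.11 µM 1 rose and 3 fell. PLEKHM1, an adaptor for fusion with the lysosome, changed by 0.80 and then -2.29, both called. Of 26 genes of mTORC1 signalling at the lysosome 7 rose and 2 fell at 0.37 µM, and 2 rose and 9 fell at 1.11 µM. SESN2, a leucine sensor induced by stress, rose at both doses (2.12 and 3.00), RRAGD, a GTPase that brings mTORC1 to the lysosome, rose at 0.37 µM and was not called at 1.11 µM (1.96 and -0.01), and MITF, a relative of TFE3, fell at both (-2.68 and -2.18).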

How the data were processed

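The data are per-gene counts of 72 wells. The deposited raw counts were made with kallisto and bustools on GRCh38, per the submitters' processing notes. Their versions, the annotation, the use of strand and any collapsing of molecular identifiers are not given in the sources used here. Of 23170 genes 38, those of chromosome Y (GENCODE 29) and XIST, were left out before totals and tests. CPM values were computed here on TMM-scaled totals. edgeR 4.0.16 (R 4.3.3) fitted quasi-likelihood models to the 11 groups of all 72 wells, with filterByExpr at a minimum count of 10 and Benjamini-Hochberg adjustment over all genes, and a second fit covered the 32 DMSO wells by column. It was tested on simulated data. DESeq2 1.42.0, plate sides, DMSO of rows K and L, other filters and leaving out wells served as alternatives. The labels' protocol names 16 DMSO wells on a plate, and the labels list 32, all used. No 2 wells agreed within sampling noise. The members and lists were chosen with earlier results of these data known. Values in every well were given for members called at 0.37 µM (up to 3 a role) or at 0.12 or 1.11 µM (up to 2), or between DMSO columns (up to 3), and from the other lists for up to 2 rising and 2 falling called genes at 0.37 µM with a mean of at least 10 CPM, plus SQSTM1. Total counts set the precision: at 3.33 and 10 µM single counts decide levels. Promoters came from RefSeq.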

Additional observations from a re-analysis of the deposited data

Results flagged for a closer look

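In 4 of 73 groups of 4 wells searched among the members given by well, 1 well lay far from the other 3 by Dixon's test at its 95% level. Chance gives such a gap in about 1 in 20 groups. At 0.12 µM MCOLN1 had 15.77 CPM in 1 well, with the lowest at 11.65 CPM, and GABARAP had 48.32 CPM, with the lowest at 30.34 CPM. At 0.37 µM NBR1 had 110.69 CPM in 1 well, with the lowest at 83.83 CPM. At 1.11 µM TFE3 had 124.37 CPM in 1 well, with the lowest at 14.17 CPM.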

How the results depend on the processing

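None of the 26 called changes of members given by well at 0.37 and 1.11 µM turned direction under the 16 alternatives run, and changes that were not called were not followed one by one. Among those signs did turn: 7 of 15 enzymes were positive at 0.37 µM, and 9 with size factors, 9 on the left side and 5 on the right. The count of members called kept within 1.5 times its value except as follows. At 0.12 µM (0) it was 2 with DESeq2's Wald test, 2 without 3.33 and 10 µM, and 3 with the dose and DMSO alone. With DMSO of rows K and L alone it was 7 at 0.37 µM (17), 14 at 1.11 µM (24) and 5 between 0.12 and 0.37 µM (8). The left side alone gave 10 at 0.37 µM, 3 between 0.12 and 0.37 µM and 13 between 0.37 and 1.11 µM (26), and the right side alone gave 5 between 0.12 and 0.37 µM. These settings use fewer wells, and DMSO of rows K and L also matches the rows of the treated wells. The part of each in the lower counts was not tested. Of the 26 called changes, the call was lost for 12 with the replicate block, 12 without it in the same wells, 11 with DMSO of rows K and L, 10 on the left side, 4 on the right and 1 with size factors. DESeq2's Wald test gave 13 at 10 µM (21) and 13 between 0.12 and 0.37 µM, and the cause was not tested. The fit with replicate number as a block gave 8 at 0.37 µM, 11 at 1.11 µM, 16 at 3.33 µM (25) and 5 between 0.12 and 0.37 µM, and the same wells numbered 1 to 4 without the block, a setting chosen after seeing the data, gave 8, 11, 17 and 5. Pairing by number was not seen: same-number wells correlated between -0.127 and 0.139 (median -0.0042), 3 of 144 pairs passed 0.1, and 35 of 144 comparisons matched a well best with its own number. Leaving out each well number in turn gave 15 to 17 at 0.37 µM, 21 to 24 at 1.11 µM, 22 to 27 at 3.33 µM and 17 to 22 at 10 µM, and 6 to 7, 21 to 24 and 18 to 21 for the steps from 0.12, 0.37 and 1.11 µM to the next dose. Size factors gave 5 higher and 10 lower at 10 µM, with 31.6% in place of 9.53% of all called genes higher, and 13 higher and 13 lower between 0.37 and 1.11 µM, with 37.0% in place of 47.4%, and 8 higher and 1 lower between 0.12 and 0.37 µM, with 62.2% in place of 31.1%.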
